A study of Pisaster ochraceus with 50 samples.

Results

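The pyloric caecum of the ochre sea star Pisaster ochraceus was compared between the largest 2 size classes of healthy animals, large and x-large. The libraries were chosen by their labels alone: pyloric caecum, no signs of wasting, not feeding, taken at McClures Beach, and a size class of large or x-large. This gave 6 of the 50 libraries of the series, 3 per size class, each from a different wild animal. The study sampled dermis, tube feet and pyloric caecum from 17 animals of Point Reyes to ask which genes differ between tissues, size classes and animals with and without sea star wasting disease. The measure is raw read counts per gene from bulk RNA sequencing, and levels are given in CPM, a gene's share of all gene reads in its library on a fixed scale.

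The pyloric caeca are paired digestive glands that run through each arm of a sea star. They secrete digestive enzymes, take up the products and store lipid and other reserves, which feed the animal between meals and supply the gonads. Sea stars grow indeterminately, so size class stands for size and not directly for age. In sea star wasting disease, animals develop lesions, lose arms and disintegrate.

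The animals carried no treatment or genetic change, and the sources used here do not give the body sizes behind the class names. Large animals 1, 2 and 3 were all brown, and their caecum libraries carried the batch labels 4, 2 and 3. X-large animals 1 and 3 were orange, x-large animal 2 was brown, with the batch labels 4, 4 and 1. Size thus cannot be told apart from batch outside batch 4, which held 1 large and 2 x-large animals, and only 1 brown animal was x-large. An additional size label was the same in 5 of the 6 animals and lacking in large animal 3. The files do not pair gene IDs with names. Each gene is therefore called by its ID, with no role, position or sequence.

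Depth was similar in the groups. Gene reads numbered 721096, 964507 and 757370 in the large and 743719, 1003306 and 995626 in the x-large libraries, so 1 read stands for about 1 CPM. Between 11679 and 13522 genes had a read per large library, and between 12702 and 13123 per x-large library. Reads that met no gene made up 75.7% ± 4.12 in large and 74.2% ± 3.29 in x-large libraries (SD, n = 3). The tissue label was checked against lists of 100 genes per tissue drawn from small and medium animals. Every one of the 100 pyloric caecum genes had reads in each of the 6 libraries, and together they took 13.9% to 21.8% of the gene reads. The 100 dermis genes took 0.00435% to 0.0161% and the 100 tube feet genes 0.00901% to 0.0213%.

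No gene differed between x-large and large caecum at the study's false discovery rate of 0.01. Of 13128 genes that averaged 1 CPM or more over the 6 libraries, edgeR's quasi-likelihood test called 0 (0%), while 678 (5.16%) had an unadjusted p under 0.05, 385 higher (2.93%) and 293 lower (2.23%) in x-large animals. At a rate of 0.05 it called 3 genes (0.0229%): g20832 and g5304 higher and g9876 lower in x-large animals. On the same libraries DESeq2 called 4 genes at 0.01, all higher in x-large animals, limma-voom called 0, and edgeR with robust dispersion called 2. The median log2 fold change, x-large minus large, was -0.05. By CPM the 3 values of 1 class lay wholly apart from those of the other at 1615 genes (12.3%), 296 higher (2.25%) and 1319 lower (10%) in x-large animals. With TMM-scaled library sizes, which offset the reads taken by a few abundant genes, the counts were 682 higher (5.2%) and 658 lower (5.01%).

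The absence of calls went with wide intervals. The median standard error of the log2 fold change was 0.72. The 95% interval lay within a 2-fold change in either direction for 133 genes (1.01%), within 4-fold for 6027 (45.9%), within 8-fold for 9839 (74.9%) and within 16-fold for 11767 (89.6%). For the 684 genes that averaged 100 CPM or more, 5.85% lay within 2-fold, 87.3% within 4-fold and 96.9% within 8-fold. Differences of 2-fold were therefore not detectable for most genes with 3 animals per class. Estimated folds over 4 were found at 720 genes, 363 higher and 357 lower in x-large animals, and folds over 16 at 138.

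No gene worked as a plain switch between the size classes at 10 reads or more per library. With at least 10 reads in each library of 1 class and none in the other, 0 genes were found in either direction. With at least 3 reads, 1 gene was seen in large animals only and 0 in x-large animals only, and with at least 1 read the counts were 37 and 42. Of 16271 genes with a read in any of the 6 libraries, 9106 were read in all of them.

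**Figure D1:**
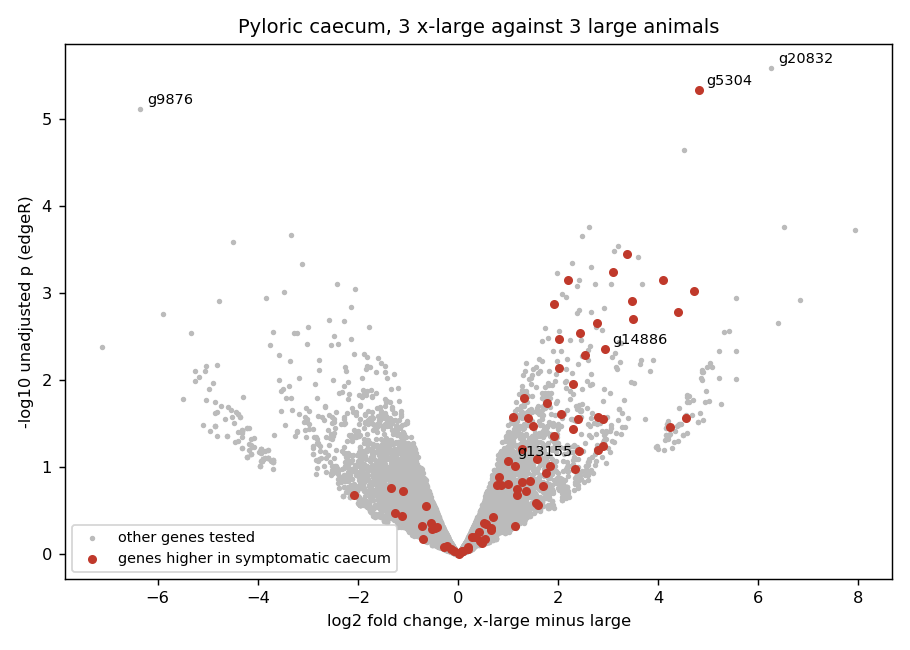
Each point is 1 of the 13128 genes tested, with its log2 fold change (x-large minus large) against -log10 of its unadjusted edgeR p. Red points are the tested genes of the list that is higher in symptomatic caecum, most of which lie right of 0, and the 3 genes with an adjusted p under 0.05 stand at the top.

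The gene with the smallest p, g20832, was nearly silent in large and present in x-large caecum. It had 0, 0 and 1.3 CPM in the large and 57.8, 33.9 and 12.1 CPM in the x-large libraries. All 3 x-large animals lay above all 3 large ones. These are 1 read against 89 reads, a ratio of 79.3 (exact 95% interval 13.9 to 3166, counting error only). The log2 fold change was 6.25 ± 0.92 (SE; edgeR adjusted p = 0.0306).

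Across the other caeca, g20832 did not follow size. Small animals had 66.0, 18.6 and 12.4 CPM, and medium animals 1.4, 12.4 and 0. A large animal of the other site, Lifeboat House, had 92.3 CPM, more than any x-large animal. The feeding large and x-large animals had 1.2 and 0 CPM, and the symptomatic ones 0 and 5.4. The 3 large animals of McClures Beach were thus low beside the small, the x-large and the Lifeboat House animals, and with the last added to the large group the log2 fold change was 0.88 (edgeR adjusted p = 0.981). In dermis the gene was present in both classes, at 36.1 ± 17.1 CPM in large (SD, n = 3) and 90.6 ± 11.7 in x-large ones (n = 2), and in tube feet it stood at 16.6 ± 13.5 and 15.0 ± 5.80.

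The gene g5304 was also low in large and higher in x-large caecum. Its values were 0, 2.1 and 5.3 CPM against 28.2, 92.7 and 41.2. The groups did not overlap, and the log2 fold change was 4.82 ± 0.74 (SE; edgeR adjusted p = 0.0306). Outside these libraries its highest values were in the symptomatic animals, 1161 CPM in the large one and 868.5 in the medium one. The feeding large and x-large animals had 50.9 and 32.8 CPM and the Lifeboat House animal 38.6, all within the x-large range. Small animals had 16.8, 0 and 0 CPM and medium animals 4.1, 1.0 and 61.9. With the feeding animals added to their size classes, the log2 fold change of g5304 was 2.01 (edgeR adjusted p = 0.999), and with the Lifeboat House animal it was 2.65 (0.974). In dermis, g5304 averaged 8.14 ± 4.98 CPM in large and 8.15 ± 8.28 in x-large animals (SD, n = 3 and 2).

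Among genes lower in x-large caecum, g9876 had the smallest p. It had 72.1, 56.0 and 818.6 CPM in large animals and 0, 1.0 and 6.0 CPM in x-large animals. Every large library lay above every x-large one, also within batch 4, where large animal 1 stood against x-large animals 1 and 2. The log2 fold change was -6.35 ± 1.02 (SE; edgeR adjusted p = 0.0338), and without large animal 3, the highest, it was -4.43 (adjusted p = 0.0695).

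The gene g9876 had no read in the x-large animals in the other tissues. In dermis, large animals had 2.6, 37.1 and 100.7 CPM and the 2 x-large animals sampled had none, at least 15.6-fold lower when the floor is set at 3 reads for the group (edgeR adjusted p = 6.0e-04). In tube feet, large animals had 0, 57.4 and 117.9 CPM and the 2 x-large ones sampled had none, at least 26.7-fold lower (edgeR adjusted p = 0.312). Large animal 1 was thus low in dermis and level with the x-large animals in tube feet, where the classes overlapped. These tissues come from the same individuals and are therefore not an independent sample of animals. The level of g9876 also varied between animals within a size class. Among the 17 animals, medium animals 1 and 3 also had no read in any of 3 tissues, and neither did the feeding x-large animal, while small animals had 7.3, 216.5 and 43.5 CPM in caecum. In dermis edgeR called 25 genes (0.184%) at 0.01, and 0 with the stricter filterByExpr.

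**Figure D2:**
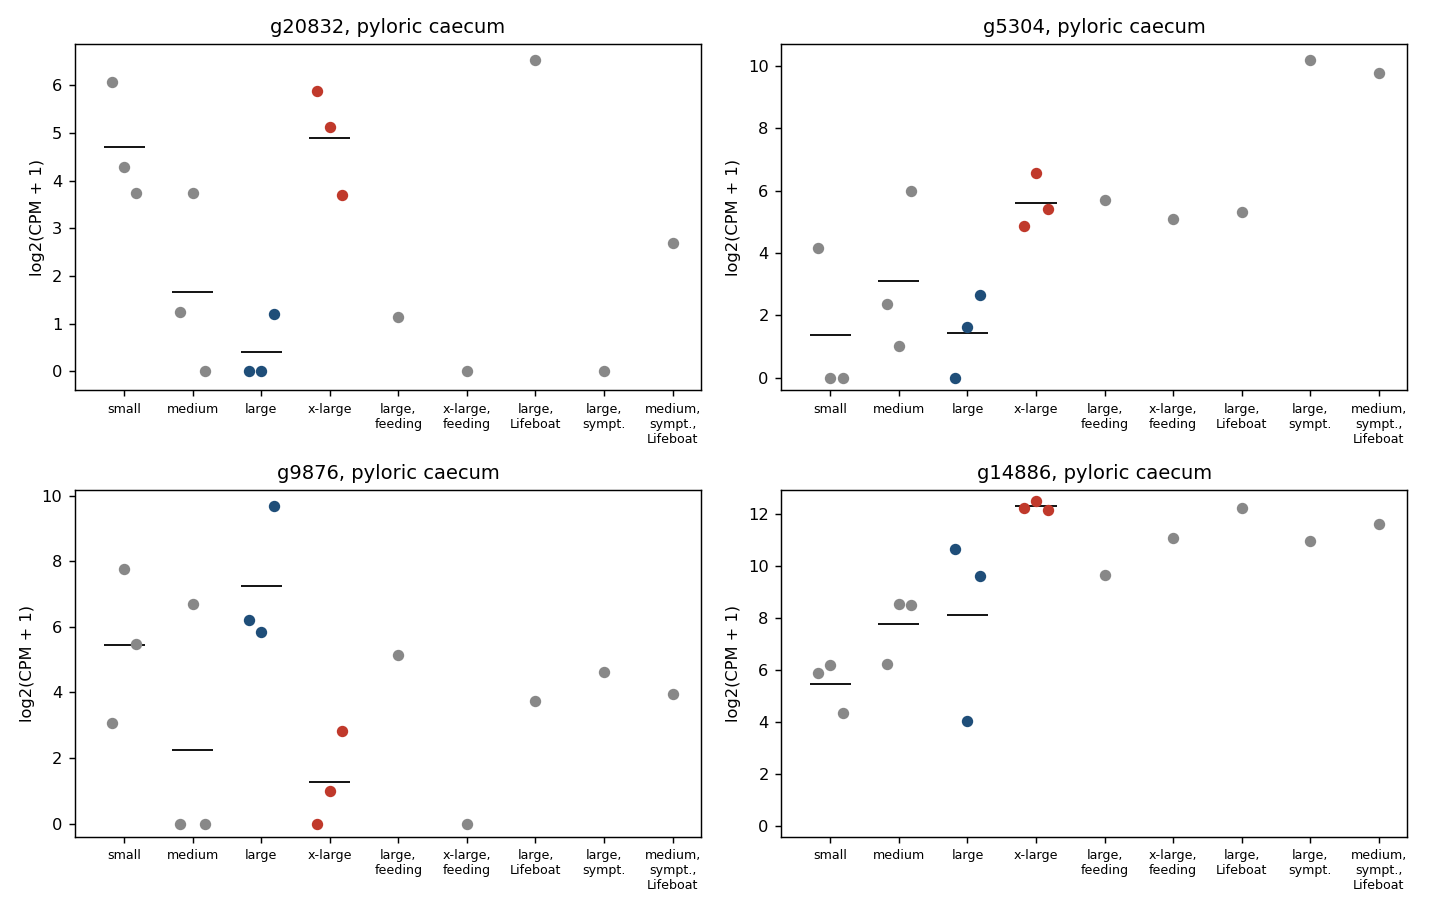
Points are single pyloric caecum libraries, with log2(CPM + 1) of the 4 genes on the vertical axes, and lines mark group means where a group has several animals. Blue marks the 3 large and red the 3 x-large animals compared, and they do not overlap in any of the 4 panels.

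**Figure D3:**
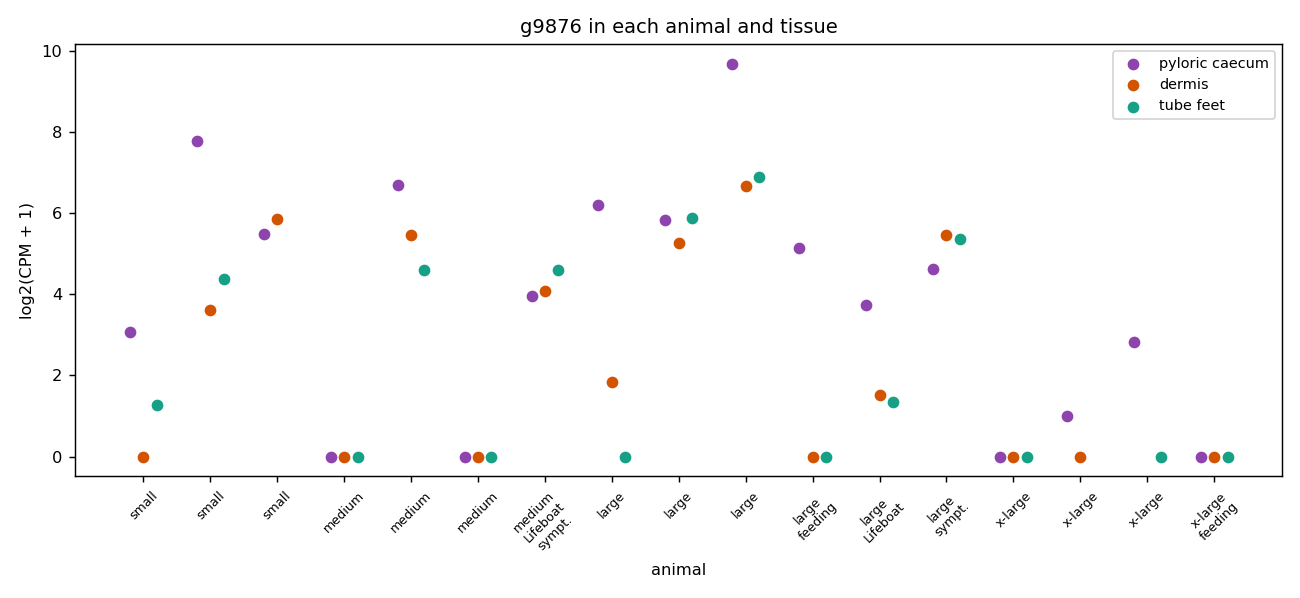
Each column is 1 of the 17 animals, with log2(CPM + 1) of g9876 in each tissue sampled from it. The x-large animals reach at most 6.0 CPM in any tissue, and 2 medium animals have no read in any.

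The most abundant transcript, g13155, took a larger mean share in x-large caecum, but the groups overlapped. Its share of gene reads was 19.9%, 25.9% and 10.5% in large and 17.9%, 37.2% and 38.4% in x-large animals. X-large animals 2 and 3 lay above the other 4 of these animals, and x-large animal 1 lay within the large range. The means were 18.8% ± 7.73 and 31.2% ± 11.5 (SD, n = 3). An exact two-sided permutation test gave p = 0.3, adjusted p = 0.7 over the 7 measures per library tested, where 3 against 3 cannot go below 0.1. By edgeR the log2 fold change was 1.03 ± 0.56 (95% interval -0.16 to 2.21, adjusted p = 0.968). Small animals held 23.5% ± 4.76 and medium animals 20.7% ± 5.11.

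The next genes in abundance were steadier. The gene g5054 took 4.43% ± 0.153 of gene reads in large and 4.08% ± 0.906 in x-large animals, and g7444 took 3.52% ± 1.30 and 4.44% ± 1.49 (SD, n = 3). For both the exact permutation p was 0.6 (adjusted 0.84). The 10 most abundant genes together took 35.4% ± 9.58 against 48.4% ± 9.02 (exact permutation p = 0.3, adjusted 0.7). In bulk tissue, a lower share of cells of a type and less RNA per cell cannot be told apart.

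The gene g10347, which is known from these data to rise with size in dermis and tube feet, was low in most caeca. Small animals had 1.93 ± 0.823 and medium animals 1.99 ± 0.876 CPM (SD, n = 3), with no value above 2.74. It stood at 8.3, 5.2 and 11.9 CPM in large and 9.4, 141.5 and 3.0 CPM in x-large animals. Each of these 3 large animals was thus above every small and medium one, on 6, 5 and 9 reads. The feeding large animal, with 1.2 CPM, and the feeding x-large animal, with 1.1, were not. The Lifeboat House animal had 8.3 CPM, and the symptomatic large and medium animals had 15.0 and 0.9. Only x-large animal 2 was high, and the other 2 x-large animals were inside or below the large range. The log2 fold change of 3.08 ± 0.97 (SE; edgeR adjusted p = 0.760) rests on that animal and was -0.18 without it. Between these 2 classes the gene was not called in dermis (adjusted p = 0.796) or tube feet (0.9997) either.

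Animals differed among themselves about as much within a size class as between classes. Spearman correlations of log2 CPM ran from 0.729 to 0.755 between large animals, from 0.742 to 0.795 between x-large animals and from 0.718 to 0.798 across classes. The least alike pair, large animal 1 and x-large animal 2, and the most alike pair, large animal 2 and x-large animal 2, were both cross-class pairs. The least alike pair shared batch and colour. The biological coefficient of variation was 0.489 over the large and 0.442 over the x-large animals, against 0.433 in small and 0.433 in medium caecum.

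The leading axis of variation crossed the size classes. It held 30.5% of the variance and set large animal 2 (37.0) with x-large animals 2 and 3 (45.5 and 36.3), against large animals 1 and 3 (-44.0 and -41.8) with x-large animal 1 (-33.1). The 3 libraries on the positive side had the highest g13155 shares and the most gene reads. With reads outside g13155 thinned to 577606, the number in large animal 1, the scores were -39.6, 38.0 and -43.5 in large and -34.6, 44.8 and 34.8 in x-large animals. Genes with a read then still ran from 11678 to 13246, and the part of depth in this axis was not tested. On component 2, with 21.0% of the variance, the classes overlapped. On component 3, with 18.6%, large animals 2 and 3 stood at 43.2 and 42.5 and large animal 1 at -12.3. The x-large animals were lower, at -34.9, -13.97 and -24.4, the nearest just below large animal 1. Whether component 3 goes with size was not tested. Large animal 1 and x-large animal 2, next to each other on it, were both of batch 4.

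**Figure D4:**
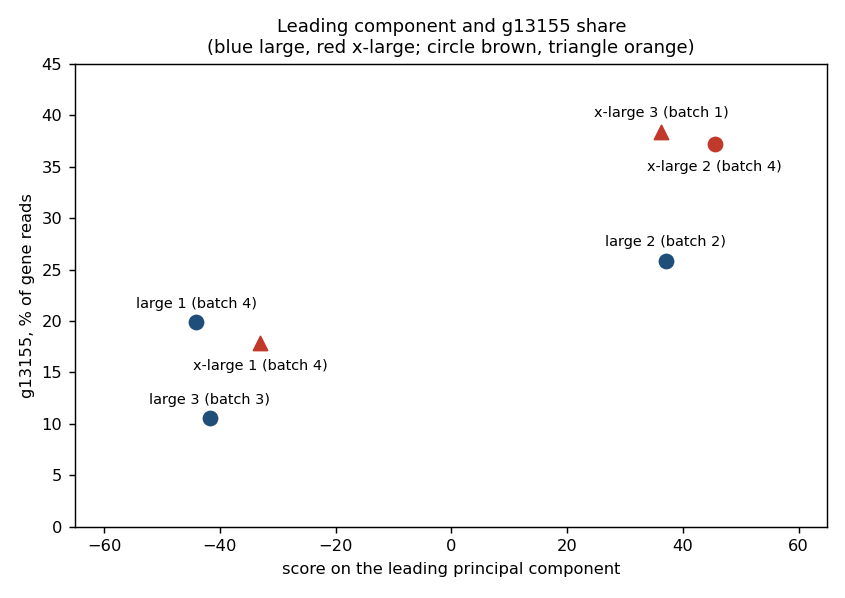
Each point is 1 library, with its score on the leading principal component of log2 CPM (horizontal) and the percentage of its gene reads taken by g13155 (vertical). Large animal 2 lies with x-large animals 2 and 3 at high scores and shares, and x-large animal 1 lies with large animals 1 and 3.

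To describe groups of genes without names, lists were taken from animals outside the comparison: genes that mark each tissue in small and medium animals, genes that differ between symptomatic and small or medium caecum, and genes ranked by p between medium and small caecum. The symptomatic caeca came from a large animal of McClures Beach (batch 2) and a medium animal of Lifeboat House (batch 5). Their reference held no large animal and neither of these batches. Size, site and batch thus also differ in that contrast, and their parts in the list were not tested. No member of any list passed the false discovery rate of 0.01. The 100 genes that mark pyloric caecum were level, with a median log2 fold change of 0.11 and 58 positive, beside -0.05 and 47.6% positive over all genes tested. The 20 dermis and 30 tube feet genes that passed the filter had medians of 0.57 (15 positive) and 0.19 (16 positive), at summed levels under 0.03% of gene reads in each library.

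Genes higher in symptomatic caecum took a larger share of reads in every x-large than in every large animal. All 100 of them together held 0.236%, 0.117% and 0.166% of gene reads in large and 0.615%, 0.785% and 0.648% in x-large animals. The 2 symptomatic caeca, on which the list was chosen, held 2.97% and 1.55%, small animals 0.0526% to 0.0917% and medium animals 0.0838% to 0.195%. The large Lifeboat House animal, with 0.640%, and the feeding large and x-large animals, with 0.503% and 0.508%, were above all 3 large animals too. A raised share was thus not limited to x-large animals.

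In the x-large animals most of that share came from g14886. It had 1595, 15.6 and 783 CPM in large and 4839, 5772 and 4530 CPM in x-large animals, and 2008 and 3109 CPM in the symptomatic ones. All x-large values were above those of the 3 large and the 2 symptomatic animals. The gene averaged 49.7 ± 26.9 CPM in small and 268 ± 167 CPM in medium animals (SD, n = 3). It is also a member of the list higher in medium than in small animals. The large Lifeboat House animal, with 4830 CPM, lay inside the x-large range, while the feeding large and x-large animals had 797 and 2163 CPM. The log2 fold change was 2.93 ± 0.90 (SE; edgeR adjusted p = 0.714). Without g14886 the list held 0.0761%, 0.115% and 0.0878% in large and 0.131%, 0.208% and 0.195% in x-large animals, which did not overlap either. Medium animal 3, with 0.159%, and the Lifeboat House animal, with 0.157%, then lay above x-large animal 1. The feeding large and x-large animals, with 0.423% and 0.292%, lay above all 3 x-large animals compared. The other small and medium animals had 0.0454% to 0.0933%.

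Member by member, 86 of the 100 genes passed the filter on the mean, which favours genes that are high in either class. Of these 70 (81.4%) had positive log2 fold changes, with a median of 1.22, or 1.17 when the 2 genes with no read in 1 class take their bound. An unadjusted p under 0.05 was seen for 30, all higher in x-large animals (34.9%, beside 2.93% of all genes tested). With TMM-scaled CPM, 23 were higher without overlap (26.7%, beside 5.2%) and 1 was lower (beside 5.01%). The gene g19882 is an example, with 33.3, 49.8 and 21.1 CPM in large, 90.1, 201.3 and 92.4 in x-large and 3213 and 1560 in symptomatic animals. Its log2 fold change of 2.20 ± 0.54 had an edgeR adjusted p of 0.396, and the x-large values remained far below the symptomatic ones.

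The median over all 100 genes, untested members included, was not raised in every x-large animal. Relative to the small and medium mean, it was -0.11, 0 and -0.21 (log2) in large and -0.09, 0.83 and 0.55 in x-large animals. X-large animals 2 and 3 were above all large animals and x-large animal 1 was among them. The symptomatic animals stood at 4.12 and 3.71, and the feeding large, feeding x-large and Lifeboat House animals at 0.96, 0.50 and 0.43. The list median of the x-large against large fold changes was 0.77 without x-large animal 2, and 0.91 or 1.09 when the list was drawn from the large or the medium symptomatic animal alone.

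Genes lower in symptomatic caecum leaned the other way. Of 78 genes 77 were tested, 20 had positive and 57 negative log2 fold changes, and the median was -0.36. With TMM-scaled CPM, 10 were lower in x-large animals without overlap (12.99%, beside 5.01% of all genes tested). Their share of gene reads was 1.30%, 1.04% and 1.69% in large and 1.06%, 0.602% and 0.911% in x-large animals, which overlapped. The most abundant member, g20222, stood at 1607, 1458 and 1846 CPM against 710, 927 and 1438 (log2 fold change -0.33 ± 0.44, edgeR adjusted p = 0.985). The next, g19960, stood at 1105, 759 and 795 CPM against 510, 382 and 585 (-0.57 ± 0.44, adjusted p = 0.978). Both were lower in every x-large library by CPM, as were 10% of all genes tested, and neither passed the test. With TMM-scaled library sizes the classes overlapped at both genes.

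Genes that differ between medium and small caecum lay near their medium level in both classes. The 100 genes higher in medium animals had a median log2 difference from the small and medium mean of 0.87, 0.31 and 0.68 in large and 1.00, 0.75 and 1.04 in x-large animals, beside 0.53 to 1.06 in the medium animals themselves. The 100 genes lower in medium animals stood at -0.81, -0.84 and -1.19 in large and -0.76, -1.01 and -0.94 in x-large animals. For both lists the large and x-large animals overlapped. The medians of the x-large against large fold changes were 0.18 over 99 genes and 0.22 over 96. An unadjusted p under 0.05 and a higher value in x-large animals was seen for 15 genes of each list (15.2% and 15.6%, beside 2.93% of all genes tested), and for 2 and 4 with a lower value (beside 2.23%). With TMM-scaled CPM, 15 of the 99 (15.2%) and 7 of the 96 (7.29%) were higher without overlap, beside 5.2%. A share above the background was therefore not particular to the symptomatic list. The lists are not fully separate. The list higher in symptomatic caecum shares 4 genes with the list higher in medium animals and 1 with the list lower in them. Of the genes called at a rate of 0.05, g5304 is in the list higher in symptomatic caecum and g20832 in the list lower in medium animals.

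**Figure D5:**
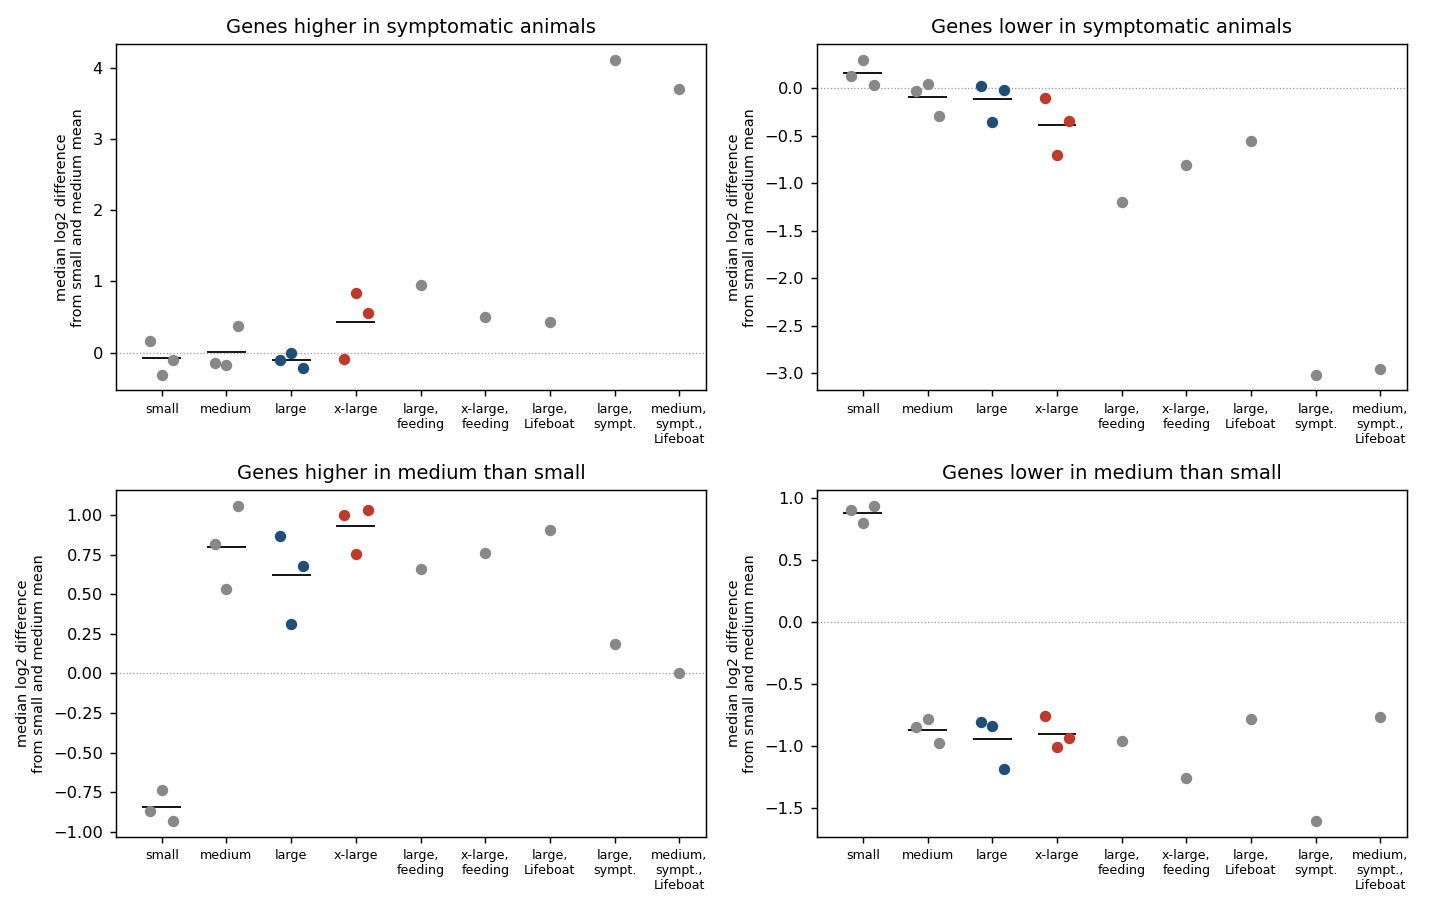
Each point is 1 pyloric caecum library, with the median over a list of the log2 difference from the mean of the small and medium animals on the vertical axis, and lines mark group means. The symptomatic points of the upper panels and the small and medium points of the lower panels follow from how the lists were chosen, and 2 of the 3 x-large animals (red) lie above the 3 large ones (blue) in the upper left panel.

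The most abundant members of the other lists varied from animal to animal. Among caecum genes, g18995 averaged 16820 ± 2991 CPM in large and 12077 ± 5251 in x-large animals. Among genes higher in medium than small animals, g20128 averaged 3150 ± 1383 and 2728 ± 1560 and g9276 1272 ± 364 and 988 ± 388 CPM. Among genes lower in medium animals, g12788 averaged 2383 ± 887 and 3269 ± 3702 CPM, where x-large animal 3 alone had 7530, and g10939 6474 ± 1683 and 4897 ± 498 (SD, n = 3). The dermis genes g18733 and g669 and the tube feet genes g3691 and g9761 stayed under 31 CPM in each of the 6 libraries. The edgeR adjusted p of these 9 genes ran from 0.979 to 0.993.

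Whether the size effect in caecum differed from that in the other tissues was tested directly in 1 fit of 14867 genes. No gene passed 0.01 by edgeR against dermis (0%), with 710 at an unadjusted p under 0.05, or against tube feet (0%), with 504. The tissues were taken from the same animals, and with animal as a replicate block edgeR called 5 genes against dermis, all with the higher effect in caecum, and 8 against tube feet, 4 in each direction. The tissues of 5 of these 6 animals carried more than 1 batch label, so batch and tissue within an animal cannot be told apart. The blocked p-values rest on a spread pooled over genes, not on that of each gene. Under the block the x-large minus large effect of g14886 was higher in caecum by 4.05 ± 0.84 than in dermis and by 4.81 ± 0.81 than in tube feet (log2, SE; edgeR adjusted p = 0.0039 and 2.2e-05). It was chosen as a list member and averaged 27.8 and 29.2 CPM in large and x-large dermis. For g20832 and g5304, chosen for their difference in caecum, the blocked values are a description that this choice favours: 5.76 ± 1.12 and 5.72 ± 1.14 against dermis.

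In the unblocked tissue test against tube feet the smallest p was that of g20832, with a tissue difference of 6.54 ± 1.18 (log2, SE; edgeR adjusted p = 0.0467). Against dermis its difference was 5.38 ± 1.16 (edgeR adjusted p = 0.481), and it had been chosen for its difference in caecum. The genes with the smallest p in the other direction were g1194 against dermis and g880 against tube feet. Against dermis, g1194 was lower in x-large than in large caecum, with 148, 223 and 276 CPM in large and 83.4, 63.8 and 102.4 in x-large animals, and higher in x-large dermis, with 12.8, 5.9 and 19.6 against 127.8 and 59.8 CPM. In neither tissue did the classes overlap. The tissue difference was -3.34 ± 0.63 (log2, SE; edgeR adjusted p = 0.166). Against tube feet, g880 was level in caecum, at 211 ± 111 and 179 ± 24.2 CPM (SD, n = 3). In tube feet the large animals had none, against 27.3 and 14.0 CPM in the x-large ones, at least 14.0-fold higher. The tissue difference was -6.08 (edgeR adjusted p = 0.254).

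Of the 25 genes called between the classes in dermis, 2 higher and 23 lower in x-large animals, 6 passed the filter in caecum, and 5 of these had the same sign there. One of them, g9876, is the gene described above, and none was called at 0.01 in caecum. In tube feet 0 genes passed by edgeR (529 at an unadjusted p under 0.05), and 2 did by DESeq2.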

How the data were processed

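Per the submitters' processing notes, reads were trimmed with Trim Galore 0.4.4 and aligned with TopHat2 2.0.13; SAMtools 0.1.19 and edgeR are named too. Per the labels, the Illumina TruSeq RNA kit (v2) was used for libraries and Qiagen RNeasy Mini for RNA. The sources used here do not give the read counter, strand mode, assembly or gene models, so genes that overlap or share copies cannot be told apart. The deposited files hold raw counts for 21777 genes and 5 summary lines, which were left out of library sizes and tests.

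Counts were analysed with edgeR 4.0.16 in R 4.3.3: TMM scaling, genes that averaged 1 CPM or more over the libraries fitted (at least 99.8% of gene reads kept), the quasi-likelihood F-test and Benjamini-Hochberg adjustment over all genes, at 0.01 as in the study's design text. Standard errors are the log2 fold change over the square root of F. DESeq2 1.42.0 and limma 3.58.1 were alternatives, next to other scalings, filters, covariates and sets of animals. The edgeR test of 2 groups of 3 libraries was tried on simulated counts, and the other tests were not. In tests within 1 tissue, each p-value measures the spread between wild animals, 3 per class in caecum and 3 large and 2 x-large in each other tissue. The tissue tests without the animal block treat libraries of the same animal as independent. Their p-values measure a spread between libraries, not between independent animals. The block takes out differences between animals, and its p-values are normal tail areas from a spread pooled over genes. They do not measure each gene's own spread. Floors and exact intervals of read ratios cover counting error only; intervals of fold changes come from the edgeR standard errors and include the spread between animals.

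The comparison, lists and naming rule were chosen with earlier results of these data known. The rule names the gene with the smallest p and no overlap in each direction, the 3 most abundant, g10347, the leading gene in each direction of each tissue test and the 2 most abundant members of each list; g5304 was named after its values were seen. Lists hold up to 100 genes: tissue genes at a false discovery rate of 0.01 against both other tissues in small and medium animals, symptomatic genes at 0.01 against the 6 small and medium caeca, and medium against small genes by p alone, all with at least 10 CPM in the higher group. TMM-scaled overlap, the lists by single symptomatic animal or without g14886, and thinning were added after the data were seen.

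Animals pair the tissues through the individual label. Deviations from the class means correlated between tissues of 1 animal by -0.00 to 0.17 (median 0.10 over 14 pairs) and between animals by -0.12 to 0.03 (median -0.05 over 29 pairs). Deviations within a class and tissue cancel out. The value between animals is thus tied to the value within animals and is no separate comparison.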

Additional observations from a re-analysis of the deposited data

Results flagged for a closer look

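With animal as a replicate block, the x-large minus large effect differed between pyloric caecum and another tissue at 4 named genes (edgeR, log2 ± SE). For g14886 it was higher in caecum by 4.05 ± 0.84 than in dermis (adjusted p = 0.0039) and by 4.81 ± 0.81 than in tube feet (2.2e-05). For g20832 it was higher by 5.76 ± 1.12 than in dermis (0.0018) and by 6.07 ± 1.18 than in tube feet (9.0e-04). For g5304 it was higher by 5.72 ± 1.14 than in dermis (0.0018) and by 4.53 ± 0.98 than in tube feet (0.0075). For g880 the difference from tube feet was -6.18 ± 1.25 (0.0018), where the large tube feet had no read. None of these differences passed 0.01 without the block, and the blocked p-values rest on a spread pooled over genes.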

How the results depend on the processing

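The count of 0 genes at 0.01 was kept in 16 of 27 alternatives, among them limma-voom, filterByExpr, the fits of all 15 asymptomatic caeca and brown animals alone (1 x-large animal, assumed to vary like the others). Of the 16, the test against a minimum fold of 2 is stricter than the main test, so it could only keep the 0. The count became 52 without a filter on low counts, 4 by DESeq2, 2 with robust dispersion and 3 at 0.05. It also moved with batch as a covariate, in batch 4 alone and with colour as a covariate. In the first 2 of these only batch 4 compared the classes, so they are 1 comparison. It rests on 1 large animal, assumed to vary like the others. With colour only brown animals compared the classes, with 1 x-large animal. Leaving out 1 animal gave 0 to 2: 1 without large animal 2, 2 without x-large animal 1 and 1 each without x-large animals 2 and 3. g20832 was called in 5 of 25 alternatives, g9876 in 4 and g5304 in 7, and none of them changed direction. The cause was not tested. By TMM-scaled CPM 682 and 658 genes were higher and lower without overlap.

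Without scaling factors the median over all genes moved to -0.39, and list medians were -0.21 for caecum, 0.29 for dermis and -0.19 for tube feet genes, 0.86 and -0.71 for genes higher and lower in symptomatic caecum, and -0.18 and -0.14 for genes higher and lower in medium animals. Each list stayed on the same side of the median over all genes. With feeding and Lifeboat House animals in the reference, the list higher in symptomatic caecum had a median of 0.78. Leaving out 1 animal, the medians ran from 0.24 to 1.10 for dermis genes, -0.44 to 0.43 for tube feet genes, 0.77 to 1.32 for genes higher in symptomatic caecum, and 0.0886 to 0.40 and 0.16 to 0.46 for genes higher and lower in medium animals.

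Leaving out 1 animal gave 27 to 48 genes in dermis and 0 to 80 in tube feet, where 80 came without x-large animal 3. Dermis gave 0 with filterByExpr, and tube feet gave 2 by DESeq2. The tissue differences became 5 and 8 genes with animal as a replicate block, and 0 to 1 against tube feet when 1 animal was left out (1 without x-large animal 2). For size within caecum no paired analysis was possible because each animal has 1 size class.

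Among named genes, log2 fold changes turned sign as follows; none of these genes was called in the caecum comparison, though g10347 was called without a filter (3.08) and with colour as a covariate (4.56). Without scaling factors the values were -0.12 for g5054, -0.23 for g880, -0.0316 for g669, -0.0387 for g9761 and -0.21 for g20128. With feeding animals they were -0.22 for g5054, -0.0324 for g18733 and 0.17 for g9276, and with the Lifeboat House animal -0.23 for g880, 0.0581 for g18995, -0.0359 for g669 and -0.14 for g20128. In the 15 caeca with batch they were -0.25 for g880, 0.0534 for g18995, -0.49 for g20128, -0.41 for g12788 and 0.0765 for g10939, and with colour -0.0509 for g880, 0.0459 for g18995, -0.0211 for g18733, -0.31 for g669, -0.79 for g20128 and -0.0482 for g12788. In the 6 libraries with batch they were -0.29 for g880, -0.15 for g18733, -0.61 for g20128 and -0.64 for g12788, in batch 4 alone -0.28, -0.13, -0.60 and -0.63, and with colour -0.94 for g20128 and -1.05 for g12788. In brown animals they were 0.0454 for g18995, -0.88 for g20128 and -0.997 for g12788, and with g13155 left out of the counts 0.0033 for g9276. Leaving out 1 animal, the ranges were -0.18 to 3.69 for g10347, -0.19 to 0.33 for g880, -0.44 to 0.13 for g18995, -0.0304 to 0.73 for g669, -0.32 to 0.54 for g20128, -0.27 to 0.13 for g9276, -0.75 to 1.20 for g12788 and -0.32 to 0.17 for g10939.

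Depth and replicate number limit these results: 1 read is about 1 CPM, so genes near the filter rest on a handful of reads, and 3 animals a class leave 2-fold changes out of reach for most genes.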

Other observations

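Across genes, the x-large minus large fold change and the difference of the symptomatic from the small and medium caeca, which share no library, had a Spearman correlation of 0.202 over 12334 genes. Over the 5440 genes that averaged 10 CPM or more it was 0.258. The loading on the leading component of the 6 libraries had a correlation of 0.306 with the same symptomatic difference, and of 0.381 over those 5440 genes. That loading and the x-large minus large fold change had a correlation of 0.452 with each other over 13128 genes. Their values against the symptomatic difference are thus not separate. Against the medium minus small difference the correlations were -0.03 for the fold change and -0.12 for the loading, over 12236 genes. Genes within libraries are not independent replicates, so these values are descriptions. The animals on the positive side of that component, large animal 2 and x-large animals 2 and 3, carried no sign of wasting in their labels. Batch and colour as causes of that axis were not tested beyond the labels: each side holds animals of 3 or 2 batches, and both hold brown and orange animals.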
